A study of Mus musculus with 8 samples.

Results

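The genes described here carry the adrenergic signal in the heart: the adrenergic receptors Adrb1, Adrb3, Adra1a and Adra1b, the adenylyl cyclases Adcy5, Adcy6 and Adcy9, and the protein kinase A subunits Prkaca and Prkar1a. They were taken by name: every non-control probe of the array whose gene name equals one of these 9 symbols. This gave 16 probes for 9 genes, of 39429 probes with 30199 names on the array. RNA came from the left ventricle of males of the inbred mouse strain C57Bl/6j, killed at 16 weeks of age. For their last 8 weeks 4 mice ate a low salt diet with 0.05% sodium and 4 mice ate a normal salt diet with 0.4% sodium. The mice carried no transgene or other treatment that the labels mention beyond the pentobarbital anaesthesia that both diets shared. Septum, free wall and apex were homogenised together, so a value is that of the whole tissue. Each of the 4 Agilent 2-colour arrays carried 2 mice of 1 diet, with mice 1 and 3 of each diet in the dye Cy3 and mice 2 and 4 in Cy5. No array held both diets, and the 2 arrays of each diet were neighbours on the slide, so that place on the slide and diet cannot be told apart.

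Adrenaline and noradrenaline act on the heart through these receptors. The beta receptors couple mainly to the stimulatory G protein, which turns on adenylyl cyclase, and the cyclase makes cyclic AMP from ATP. Cyclic AMP binds the regulatory subunits of protein kinase A and frees the catalytic subunits, which phosphorylate calcium channels, phospholamban and other proteins that raise the force and rate of the beat. The alpha-1 receptors couple instead to Gq and phospholipase C.

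Median spot intensities ran from 116 to 147 and median backgrounds from 15.5 to 33.5, and between 53.0% and 66.3% of the spots of a sample were well above background. Levels below are log2 intensities after background correction and normalisation, one per mouse. They can be compared between mice for 1 probe but not between probes. All 6 ventricular myocyte markers (Myh6, Myl2, Myl3, Tnnt2, Tnni3 and Actc1) were well above background. Of the 4 markers of sympathetic nerve, the source of cardiac noradrenaline, Slc6a2 and Npy were well above background in 0 samples and Dbh and Th in all 8. Dbh, which makes noradrenaline, differed by -0.51 (limma adjusted p = 0.0945) and Th, the enzyme at the start of that route, by 0.38 (limma adjusted p = 0.438). No marker probe of any cell type passed the test between diets, but the means of some lists lay apart. The widest gap was in the 4 atrial myocyte markers, with a median of -1.52, where Sln differed by -2.17, Myl4 by -1.97, Myl7 by -1.07 and Nppa by 0.41. These varied widely among mice, with Myl4 between 11.00 and 13.97 on low salt and between 12.36 and 15.50 on normal salt. The summed level of the atrial list, as the log2 of summed intensities, was 15.75 to 16.15 on low salt and 14.68 to 17.06 on normal salt. The brightest markers carry such a sum. On low salt Nppa, at 15.49 to 16.09, made up most of it, so the sum says little about Sln, Myl4 and Myl7. Of the 7 ventricular myocyte probes 3 were lower at an unadjusted p under 0.05, by -0.59 for 1 of the 2 Myh6 probes (0.02 for the other), -0.38 for Actc1 and -0.26 for Tnni3. With the local trend described below subtracted, that Myh6 probe differed by -0.39 (limma unadjusted p = 0.0657) and Actc1 by -0.08 (limma unadjusted p = 0.593). Tnni3 was then at -0.27 (limma unadjusted p = 0.0061). The summed level of that list was 20.27 to 21.03 on low salt and 20.42 to 21.24 on normal salt. The summed level of the 4 Schwann cell markers was 9.58 to 9.89 on low salt and 9.95 to 10.18 on normal salt. That of the 4 macrophage markers was 12.73 to 13.26 on low salt and 12.51 to 12.74 on normal salt. All markers of these lists were well above background in at least 4 samples. The part of other cell types in the differences below was not tested.

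The array reads each gene through 60-base probes, and the place of a probe decides which transcript it can see. Places are given on the mouse mm9 build as the array design has them, which names no exon or untranslated region. The Adrb1 and Adrb3 probes below lie in the coding part of their receptors and are shown whole, since each gene has a further probe downstream against which they can be set. Of the 3 Adcy5 probes, 2 had the largest fitted differences. Their first 30 bases are shown because they lie within 570 bases of each other at the end of the gene and yet gave unequal differences. No base is capitalised.
Adrb1 probe A_51_P203827, chr19:56797242-56797301, plus strand: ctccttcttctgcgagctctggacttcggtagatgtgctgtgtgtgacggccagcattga
Adrb3 probe A_55_P2105685, chr8:28337864-28337923, minus strand: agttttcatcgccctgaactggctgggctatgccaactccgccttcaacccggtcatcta
Adcy5 probe A_66_P120414, chr16:35304041-35304100, plus strand: atgtttccccttggcagaagactctgctag
Adcy5 probe A_55_P2047305, chr16:35304398-35304457, plus strand: gcaagaggacaccaggcaaggagcagtggc
Adcy5 probe A_55_P2106645, chr16:35304551-35304610, plus strand: ggaggtgggaaccccaacttgtctttttgt

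Of the 16 probes, 14 were well above background in at least 4 samples and were tested, and these cover all 9 genes. Of the 14, 9 read higher and 5 read lower on low salt than on normal salt. By limma with Benjamini-Hochberg adjustment over all 23228 tested probes, 0 of the 14 passed an adjusted p of 0.05, against 0.861% of all tested probes (0.827% higher and 0.0344% lower). At an unadjusted p under 0.05 there were 4 higher and 1 lower, against 11.2% of all tested probes. The diets did not overlap in 6 of the 14 probes, with low salt above in 5 (2 of Adcy5 and 1 each of Adrb3, Prkaca and Prkar1a) and below in Adcy9. Among all tested probes 12.8% did not overlap in either direction, 7.84% with low salt above and 4.93% with low salt below. With the local trend described below subtracted, the diets overlapped for these Adcy5 probes, for Adrb3 and for Adcy9. They stayed apart for Prkaca and that Prkar1a probe, and came apart for the other tested Prkar1a probe. The median difference, low salt minus normal salt, was 0.13 on the log2 scale over the 14 probes and 0.01 over all tested probes. In whole-ventricle RNA, fewer cells of a type and less RNA per cell cannot be told apart.

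**Figure D1:**
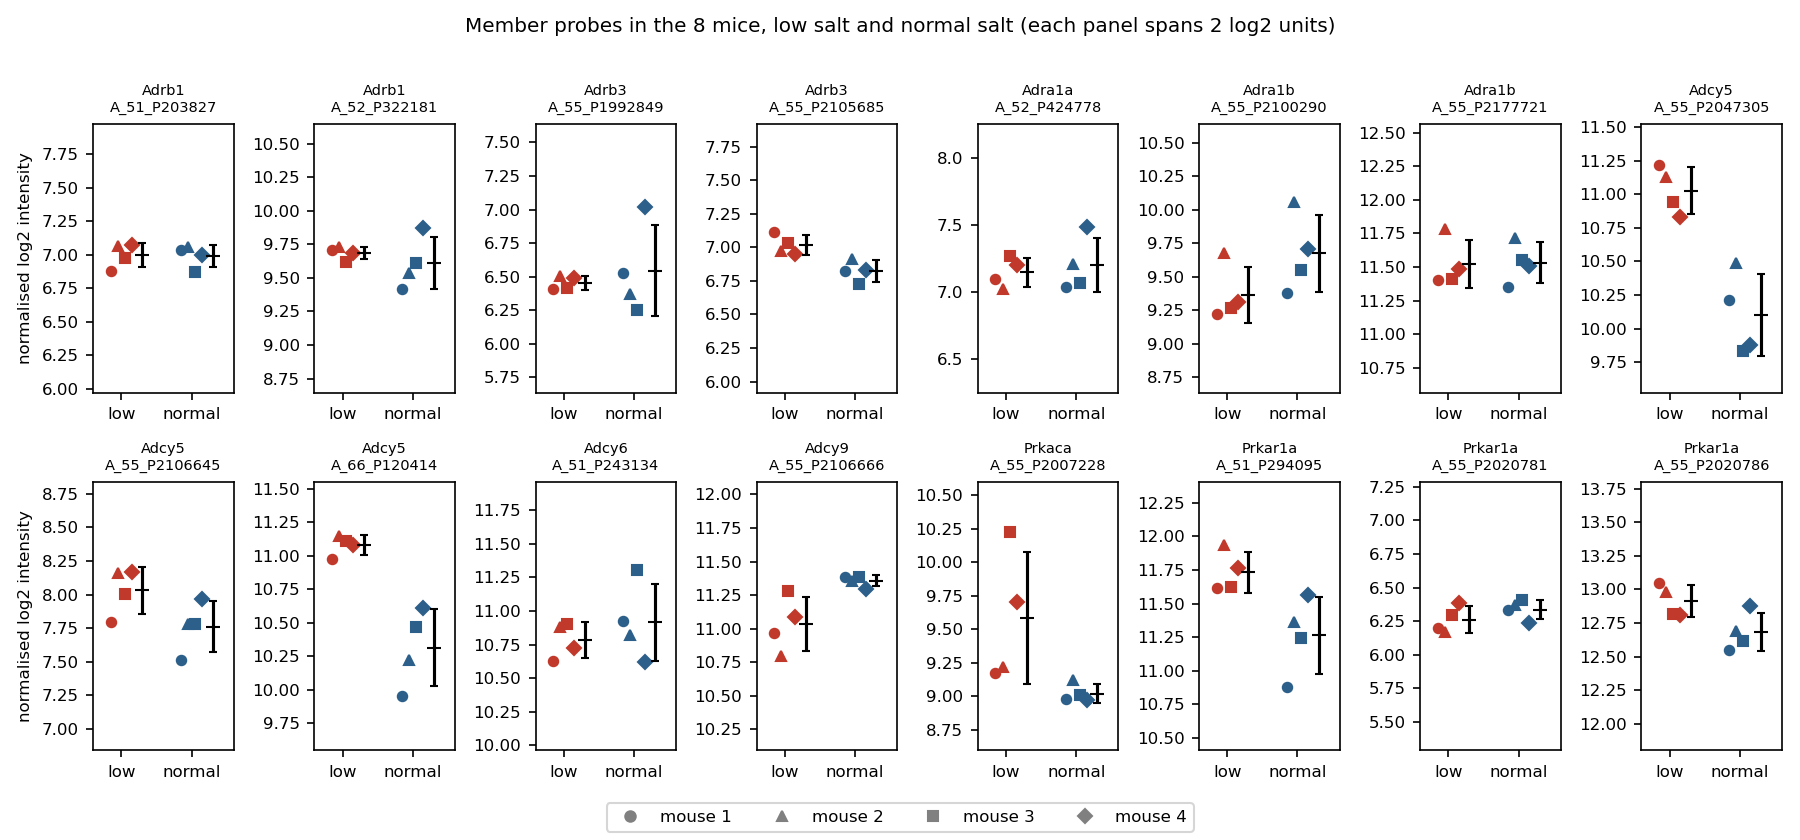
Normalised log2 intensity of each probe of the 9 genes (vertical axis) in every mouse, with low salt mice left of normal salt mice, a symbol for each mouse number, and the mean and SD of each diet beside its points (n = 4). The 2 Adcy5 probes that read higher in every low salt mouse and the spread of Prkaca among low salt mice, 9.18 to 10.22, can be seen.

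Among the receptors, no probe passed the test. Adrb1 encodes the beta-1 receptor, the main receptor through which noradrenaline drives the ventricular myocyte. Its downstream probe A_52_P322181 (row 229, column 45 of the array; chr19:56799215-56799274, plus strand) had log2 intensities of 9.71, 9.73, 9.62 and 9.69 in low salt mice 1 to 4, against 9.42, 9.53, 9.61 and 9.87 in normal salt mice 1 to 4. The low salt mice lay close together, inside the wider range of the normal salt mice. The difference was 0.08 ± 0.12 (SE, n = 4 each; 95% interval -0.20 to 0.35; limma adjusted p = 0.827). The coding probe A_51_P203827 (row 231, column 37) had 6.88, 7.06, 6.97 and 7.07 in low salt mice, against 7.03, 7.05, 6.87 and 6.99 in normal salt mice. These groups overlapped throughout, and the difference had a 95% interval of -0.21 to 0.23 (limma adjusted p = 0.981). The probe was dim, being well above background in 2 of the low salt and 3 of the normal salt mice.

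Adrb3 encodes the beta-3 receptor, best known from fat cells and also found in the heart. Its coding probe A_55_P2105685 (row 235, column 42) read 7.11, 6.97, 7.03 and 6.95 in low salt mice, against 6.83, 6.92, 6.72 and 6.83 in normal salt mice. Every low salt mouse was above every normal salt mouse, by a narrow gap. The difference was 0.19 ± 0.11 (SE, n = 4 each; 95% interval -0.06 to 0.45; limma adjusted p = 0.539). It was 0.30 in the Cy3 mice and 0.09 in the Cy5 mice, and 3 low salt and 2 normal salt mice were well above background. The size hung on the background correction, at 0.02 with every local background taken as given and 0.65 with the scanner's own processed signal. With the local trend described below subtracted, the difference was 0.09 (limma adjusted p = 0.647) and the diets overlapped. The second probe A_55_P1992849 (row 239, column 62; chr8:28336268-28336327, minus strand) was well above background in 0 low salt mice and 1 normal salt mouse and was not tested. It read 6.40, 6.50, 6.41 and 6.49 in low salt mice, against 6.53, 6.37, 6.25 and 7.02 in normal salt mice, so normal salt mouse 4 stood above the other mice. Of the 4 adipocyte markers, the cell type in which Adrb3 is best known, 2 were well above background in at least 4 samples.

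Adra1a and Adra1b encode the alpha-1A and alpha-1B receptors, the 2 alpha-1 forms of the mouse ventricular myocyte. The Adra1a probe A_52_P424778 (row 230, column 16; chr14:67352013-67352072, plus strand) read 7.10, 7.02, 7.27 and 7.20 in low salt mice, against 7.04, 7.21, 7.07 and 7.48 in normal salt mice. The groups overlapped, and the dyes went opposite ways, with a difference of 0.13 in Cy3 and -0.24 in Cy5. The fitted difference was -0.05 ± 0.16 (SE, n = 4 each; 95% interval -0.43 to 0.32; limma adjusted p = 0.919). With the local trend described below subtracted, it was -0.22 (95% interval -0.54 to 0.09; limma adjusted p = 0.468). The local difference around this probe was 0.17.

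Adra1b had 2 probes 980 bases apart from end to end. Probe A_55_P2100290 (row 353, column 51; chr11:43588147-43588206, minus strand) read 9.22, 9.67, 9.26 and 9.31 in low salt mice, against 9.38, 10.06, 9.55 and 9.71 in normal salt mice. In both diets mouse 2 was the highest, and low salt mouse 2 lay inside the normal salt range. The difference was -0.31 ± 0.18 (SE, n = 4 each; 95% interval -0.73 to 0.12; limma adjusted p = 0.552). Probe A_55_P2177721 (row 338, column 85; chr11:43589067-43589126, minus strand) read 11.40, 11.78, 11.41 and 11.49 in low salt mice, against 11.35, 11.72, 11.55 and 11.51 in normal salt mice. There too mouse 2 was highest in both diets, but the diets lay on top of each other, with a difference of -0.01 ± 0.15 (SE, n = 4 each; 95% interval -0.35 to 0.32; limma adjusted p = 0.980).

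As fitted, 2 of the 3 Adcy5 probes had the largest differences among the 14 tested, but with the local trend subtracted Prkaca (0.66) and a Prkar1a probe (0.47) were larger. With the scanner's processed signal Prkaca (0.76) and Adrb3 (0.65) were larger. It encodes, with Adcy6, one of the main cyclases of the cardiac myocyte, inhibited by calcium and by inhibitory G proteins. Probe A_55_P2047305 (row 232, column 5) read 11.22, 11.13, 10.94 and 10.83 in low salt mice, against 10.21, 10.49, 9.83 and 9.88 in normal salt mice. Every low salt mouse was above every normal salt mouse. The difference was 0.93 ± 0.19 (SE, n = 4 each; 95% interval 0.49 to 1.36), 1.90-fold higher on low salt, with a limma adjusted p of 0.0794, and it was 1.06 in Cy3 and 0.80 in Cy5. Probe A_66_P120414 (row 218, column 13) read 10.98, 11.15, 11.11 and 11.08 in low salt mice, against 9.95, 10.23, 10.47 and 10.61 in normal salt mice. The low salt mice lay close together above a wider normal salt group. The difference was 0.76 ± 0.15 (SE, n = 4 each; 95% interval 0.41 to 1.12), 1.70-fold higher, with a limma adjusted p of 0.0763. With the mouse number as a block both probes passed the test, with limma adjusted p of 0.0261 for A_55_P2047305 and 0.0460 for A_66_P120414. That block also raised the calls over all 23228 tested probes from 200 to 310. It was not shown that a number pairs mice across the diets. With each array averaged to 1 value neither probe passed, with limma adjusted p of 0.365 for A_55_P2047305 and 0.368 for A_66_P120414. Without normalisation between arrays neither passed, with limma adjusted p of 0.386 and 0.83 in the same order.

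The third Adcy5 probe showed less. A_55_P2106645 (row 203, column 38) read 7.79, 8.16, 8.00 and 8.17 in low salt mice, against 7.51, 7.78, 7.78 and 7.97 in normal salt mice. The groups overlapped, since low salt mouse 1 lay beneath normal salt mouse 4. The difference was 0.27 ± 0.11 (SE, n = 4 each; 95% interval 0.0090 to 0.53), 1.21-fold higher, with an unadjusted p of 0.0442 and a limma adjusted p of 0.434. In this probe and in both others the low salt mean was the higher one in each dye.

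The signal of the neighbourhood moved with the diet where 2 of the Adcy5 probes lie. For each spot and mouse, a local median was taken of the deviations of its 150 nearest tested spots from their means over all samples. The local difference was the mean of these medians in low salt mice minus that in normal salt mice. It was 0.53 around A_55_P2047305 and 0.43 around A_66_P120414, both near the left edge of the array, and 0.02 around A_55_P2106645. Around A_55_P2047305 the local medians were 0.29, 0.26, 0.23 and 0.22 in low salt mice 1 to 4, against -0.20, -0.18, -0.41 and -0.33 in normal salt mice, relative to each probe's mean over all samples. Spots of unrelated genes there were thus brighter in all 4 low salt mice. With the local trend subtracted, the Adcy5 differences were 0.40 ± 0.14 (limma adjusted p = 0.278), 0.34 ± 0.16 (limma adjusted p = 0.370) and 0.25 ± 0.10 (limma adjusted p = 0.305) for A_55_P2047305, A_66_P120414 and A_55_P2106645 (SE, n = 4 each). The 3 probes then lay closer to each other than before, and in each of them the diets overlapped. With every local background taken as given the differences were 0.45, 0.38 and 0.03, and with the scanner's processed signal 0.57, 0.59 and 0.43, in the same order. With the block and the subtraction together, adjusted p was 0.0788 for A_55_P2047305, 0.171 for A_66_P120414 and 0.0991 for A_55_P2106645 in limma, and 0 of the 14 probes passed.

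**Figure D2:**
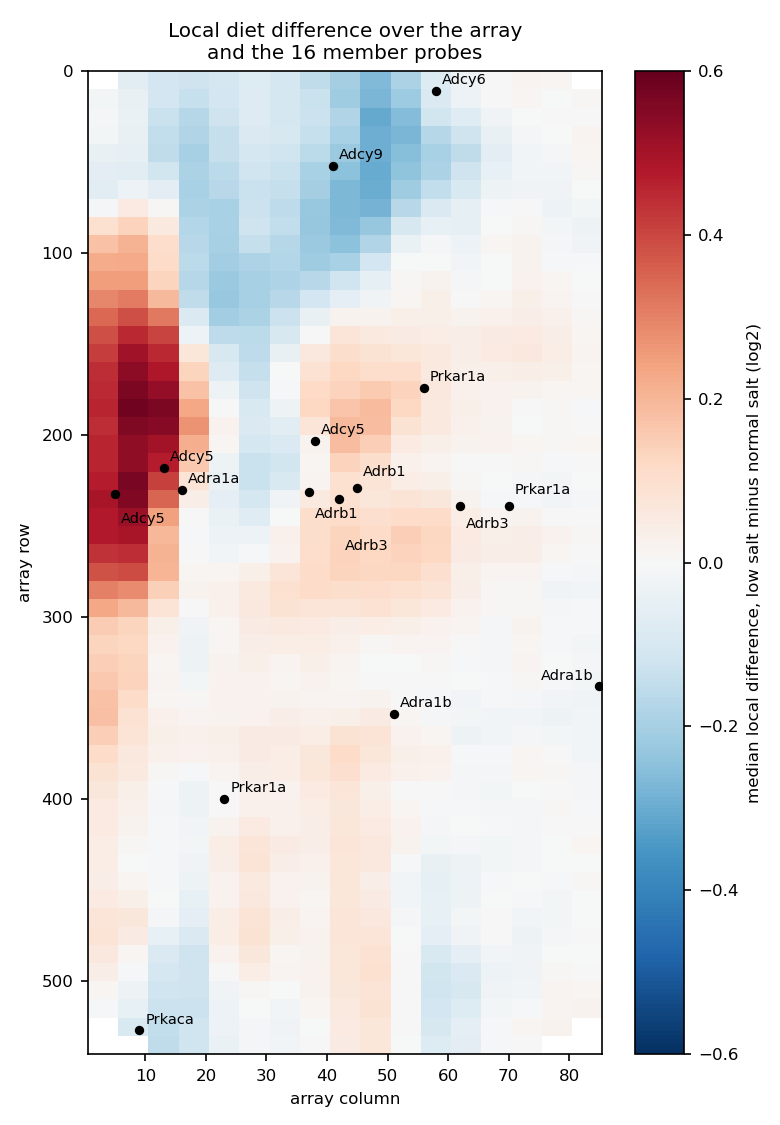
Map of the array by column (horizontal axis) and row (vertical axis), coloured by the local median difference between low salt and normal salt mice on the log2 scale, with the 16 probes marked as points. The 2 Adcy5 probes with local differences of 0.53 and 0.43 lie in a raised strip at the left edge, and the Adcy9 probe lies where the local difference was -0.215.

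Of the 14 tested probes 3 lay where the local difference exceeded 0.2 in size, the 2 of Adcy5 and that of Adcy9, and 11 lay elsewhere. Over all tested probes 10.1% lay in such places. The part of the local signal in the Adcy5 and Adcy9 differences was not tested beyond this subtraction. After it, 0 of the 14 probes passed an adjusted p of 0.05, against 0.284% of all tested probes, and the median difference was 0.04 over the 14 and 0.0015 over all.

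Adcy9 encodes a cyclase that forskolin, the plant compound that activates the other membrane cyclases, stimulates only weakly. Its probe A_55_P2106666 (row 52, column 41; chr16:4287678-4287737, minus strand) read 10.97, 10.80, 11.28 and 11.09 in low salt mice, against 11.38, 11.35, 11.39 and 11.30 in normal salt mice. The normal salt mice lay close together, and low salt mouse 3 fell just short of the lowest of them. The difference was -0.32 ± 0.12 (SE, n = 4 each; 95% interval -0.59 to -0.05; unadjusted p = 0.0243; limma adjusted p = 0.366), 1.25-fold lower on low salt. The local medians around it were -0.31 and -0.30 in low salt mice 1 and 2, which share an array, and 0.09 and 0.08 in low salt mice 3 and 4. With the trend subtracted the difference was -0.11 (limma adjusted p = 0.516), and with the scanner's processed signal it was -0.08 (limma adjusted p = 0.812). With the array of low salt mice 3 and 4 left out it was -0.47 (limma adjusted p = 0.0419), the only setting in which this probe passed. In that setting 1406 of all tested probes passed, against 200 in the main fit.

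Adcy6 encodes the other main myocyte cyclase, closely related to Adcy5. The array design places its probe A_51_P243134 (row 11, column 58) at chr15:98420404-98420418, minus strand, a stretch shorter than the probe. It read 10.63, 10.88, 10.91 and 10.72 in low salt mice, against 10.92, 10.82, 11.30 and 10.62 in normal salt mice. Normal salt mouse 3 was the highest of the 8 and the others overlapped. The difference was -0.13 ± 0.23 (SE, n = 4 each; 95% interval -0.66 to 0.40; limma adjusted p = 0.846), with -0.35 in Cy3 and 0.08 in Cy5.

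**Figure D3:**
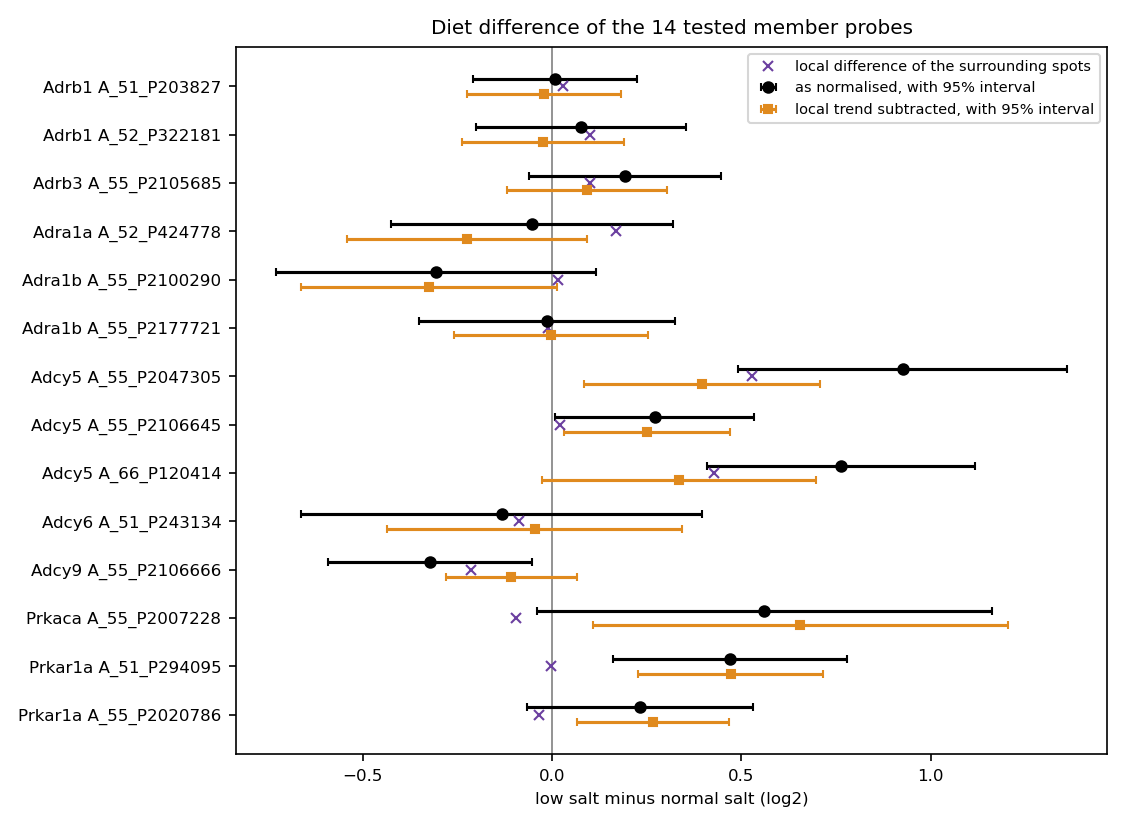
Difference between low salt and normal salt mice on the log2 scale (horizontal axis) for the 14 tested probes, as fitted and after subtraction of the local trend, with 95% intervals, and crosses for the local difference of the surrounding spots. The estimate for the Adcy5 probe A_55_P2047305 is 0.93 before and 0.40 after subtraction, while the Prkar1a probe A_51_P294095 stays at 0.47.

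Prkaca encodes the main catalytic subunit of protein kinase A in the heart. Its probe A_55_P2007228 (row 527, column 9; chr8:86519301-86519360, plus strand) read 9.18, 9.22, 10.22 and 9.70 in low salt mice, against 8.98, 9.12, 9.01 and 8.97 in normal salt mice. The low salt mice were all higher, but by little in mice 1 and 2 and by more in mice 3 and 4, which share the other low salt array. The difference was 0.56 ± 0.26 (SE, n = 4 each; 95% interval -0.04 to 1.16; limma adjusted p = 0.466), 1.48-fold higher. With that array left out it was 0.18 (limma adjusted p = 0.319), and with the array of low salt mice 1 and 2 left out it was 0.94 (limma adjusted p = 0.167). Without low salt mouse 3 alone it was 0.38, and with every local background taken as given 0.16. The local difference around this probe was -0.09, and the difference with the trend subtracted was 0.66 (limma adjusted p = 0.291).

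Prkar1a encodes the type I-alpha regulatory subunit, which holds the catalytic subunit inactive until cyclic AMP binds. Its 3 probes span 7587 bases. Probe A_51_P294095 (row 400, column 23; chr11:109530521-109530580, plus strand) read 11.61, 11.93, 11.62 and 11.76 in low salt mice, against 10.88, 11.36, 11.24 and 11.57 in normal salt mice. All low salt mice were higher, with normal salt mouse 4 just beneath the lowest of them. The difference was 0.47 ± 0.13 (SE, n = 4 each; 95% interval 0.16 to 0.78; unadjusted p = 0.00765; limma adjusted p = 0.228), 1.39-fold higher, with 0.56 in Cy3 and 0.38 in Cy5. The local difference was near 0, and the value with the trend subtracted was again 0.47 (limma adjusted p = 0.151).

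Probe A_55_P2020786 of Prkar1a (row 239, column 70; chr11:109529011-109529070, plus strand) read 13.05, 12.98, 12.82 and 12.81 in low salt mice, against 12.55, 12.69, 12.62 and 12.88 in normal salt mice. Only normal salt mouse 4 reached into the low salt range. The difference was 0.23 ± 0.13 (SE, n = 4 each; 95% interval -0.07 to 0.53; limma adjusted p = 0.533), 1.17-fold higher. With the trend subtracted the difference was 0.27 (95% interval 0.07 to 0.47; limma adjusted p = 0.266) and the diets did not overlap. The third probe A_55_P2020781 (row 174, column 56; chr11:109522994-109523053, plus strand), upstream of both, was well above background in 0 mice of either diet. It read between 6.17 and 6.38 in low salt mice and between 6.24 and 6.40 in normal salt mice, and was not tested.

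At least 1.5-fold in both dyes was reached by 2 of the 14 probes, both of Adcy5 and both higher, against 1.94% of all tested probes higher and 1.22% lower. The sign was the same in both dyes for 10 of the 14 probes.

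The other genes of the pathway showed no probe past the test. They were 89 genes in 12 lists, of which 115 probes were tested, with 0 called, 17 higher and 3 lower at an unadjusted p under 0.05, against 6.88% and 4.28% of all tested probes. Their median difference was 0.03, against 0.01 over all tested probes. The list medians ran from -0.09 in the G protein subunits to 0.26 in the other adrenergic receptors.

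**Figure D4:**
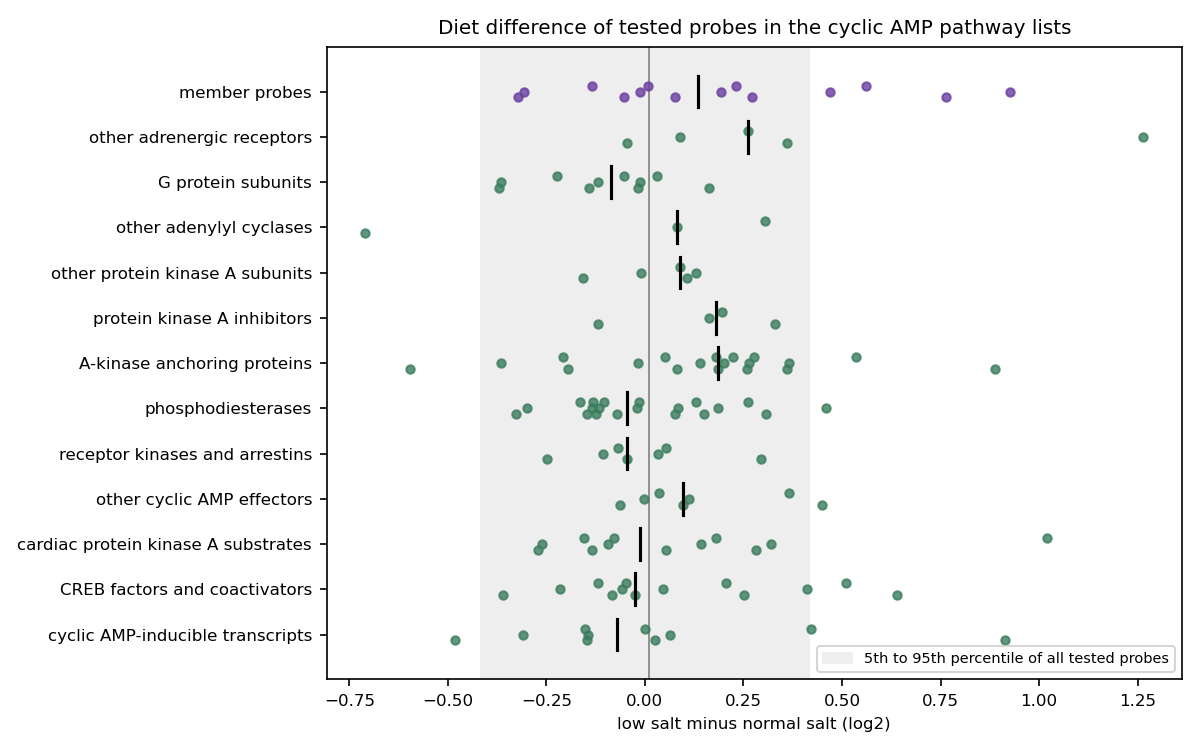
Difference between low salt and normal salt mice on the log2 scale (horizontal axis) for every tested probe of the 9 genes (top row) and of each pathway list, with each median as a tick, the median of all tested probes as a line and their 5th to 95th percentile as a band. The list medians lie between -0.09 and 0.26, and 0 of the 115 probes passed the adjusted test.

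Among the other cyclases, Adcy4, known from blood vessels, had the smallest p, with 10.27, 9.84, 10.12 and 10.08 in low salt mice against 11.05, 10.79, 10.86 and 10.45 in normal salt mice. Every low salt mouse was lower. The difference was -0.71 (limma adjusted p = 0.0812), the local difference around it was -0.02, and with the trend subtracted it was -0.69. The summed level of the 6 endothelial markers, all well above background, was 14.01 to 14.42 on low salt and 14.03 to 14.48 on normal salt (log2), a sum that the brightest markers carry. Singly, Tek differed by -0.70 (limma adjusted p = 0.409; -0.49 with the trend subtracted), Tie1 by -0.37 (limma adjusted p = 0.457), Cdh5 by -0.25, Pecam1 by -0.0067, Vwf by 0.05 and the 2 Kdr probes by -0.11 and 0.22. Every low salt mouse was below every normal salt mouse for Tie1. The part of endothelial cells in Adcy4 was not tested. Adcy1, a calcium-activated cyclase, differed by 0.31 (limma adjusted p = 0.230).

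Of the other receptors, Adra1d, the remaining alpha-1 receptor, differed by 0.26 (limma adjusted p = 0.463). Further along the pathway, Gnas, which encodes the stimulatory G protein alpha subunit, differed by -0.37 (limma adjusted p = 0.540) and Gnao1 by -0.37 (limma adjusted p = 0.474). With the trend subtracted these were -0.19 and -0.11. The other catalytic subunit gene Prkacb had differences of 0.13 and -0.16 by its 2 probes of smallest p, which were 0.09 and 0.08 with the trend subtracted. The kinase inhibitor genes Pkia and Pkig differed by 0.33 (limma adjusted p = 0.447) and 0.20 (limma adjusted p = 0.533), the second being 0.13 with the trend subtracted.

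Of the proteins that hold or end the signal, the anchoring proteins Akap7 and Akap9 differed by 0.54 (limma adjusted p = 0.226) and 0.36 (limma adjusted p = 0.303), and by 0.04 and 0.22 with the trend subtracted. The other tested Akap7 probes did not share 1 direction, with 0.19 for A_55_P2110037 and -0.60 for A_55_P2174743 (limma adjusted p = 0.474; -0.74 with the trend subtracted). The phosphodiesterases Pde1a and Pde1c, which break down cyclic nucleotides when calmodulin is bound, differed by 0.46 (limma adjusted p = 0.184) and 0.31 (limma adjusted p = 0.455), while a further Pde1a probe was at -0.17 (limma adjusted p = 0.696). Grk3, a kinase that desensitises receptors and is named Adrbk2 on the array, differed by 0.29 (limma adjusted p = 0.273; 0.17 with the trend subtracted), and the arrestin Arrb2 by -0.25 (limma adjusted p = 0.562).

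Of the targets, both probes of Hcn2, a pacemaker channel opened by cyclic AMP, were higher in the low salt mean, by 0.37 (limma adjusted p = 0.225) and 0.45 (limma adjusted p = 0.393). Rrad, an inhibitor of the calcium channel that protein kinase A phosphorylates, differed by 1.02 (limma adjusted p = 0.415), of which 0.50 was left with the trend subtracted. Tnni3, cardiac troponin I, differed by -0.26 (limma adjusted p = 0.419). Crebbp and Crem, a coactivator and a factor of the CREB family, differed by 0.64 (limma adjusted p = 0.0787) and 0.51 (limma adjusted p = 0.137). With the trend subtracted these were 0.06 and 0.15, and the local differences around them were 0.58 and 0.36. A further tested probe of each went the other way, by -0.12 for Crebbp (limma adjusted p = 0.724) and -0.21 for Crem (limma adjusted p = 0.526). The cyclic AMP-inducible Per1 differed by -0.31 (limma adjusted p = 0.490; -0.17 with the trend subtracted) and Nr4a1 by 0.91 (limma adjusted p = 0.524).

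The probes most like each member were found by the root mean square difference of centred log2 values over the 8 samples, taking each gene's brightest tested probe. For the Adcy5 probe A_66_P120414, whose own root mean square deviation was 0.42, these were Ythdf3, Clasp1 and Ankrd23 at 0.08, 0.0856 and 0.0902. The Ythdf3 probe lay at column 9 with a local difference of 0.52 and the Clasp1 probe at column 2 with 0.18. The Ankrd23 probe lay at column 49 with 0.01. For Prkaca, with a deviation of 0.41, they were Necab2, Ctsg and Tubg2 at 0.0742, 0.0848 and 0.103. Their columns were 12, 50 and 47, with local differences of 0.49, 0.05 and 0.09. For the Prkar1a probe A_55_P2020786, with a deviation of 0.16, they were Tuba3a, Tnfrsf19 and Pak7 at 0.0287, 0.041 and 0.0417. Their columns were 6, 65 and 76, with local differences of 0.25, 0.04 and 0.0069. For Adcy9, with a deviation of 0.20, they were Chtf18, Lrpap1 and Fam3a at 0.0508, 0.0515 and 0.0516. For Adcy6, with a deviation of 0.20, they were Tia1, Zfp772 and Gzf1 at 0.0988, 0.0993 and 0.104.

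The brightest probes of the receptor genes varied less than those above, with deviations of 0.117 to 0.143. A probe that varies little has small distances by this measure, so theirs cannot be set against those of the members above. For the Adrb1 probe A_52_P322181, with a deviation of 0.127, these were Gm10369, Pknox1 and Mrps14 at 0.036, 0.0421 and 0.0444. For Adrb3, with a deviation of 0.117, they were AI854703, Rab35 and Med1 at 0.0388, 0.0403 and 0.0405. For Adra1a, with a deviation of 0.143, they were Treml4, Dpysl3 and Mad2l1bp at 0.0488, 0.0528 and 0.0542. For the Adra1b probe A_55_P2177721, also with a deviation of 0.143, they were Rad1, Fggy and Arhgef17 at 0.0357, 0.0457 and 0.049.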

How the data were processed

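Per the file headers, the deposited scanner tables, made with Agilent Feature Extraction 11.5.1.1 (protocol GE2_1105_Oct12), hold the intensity of each spot and its local background per dye. The deposited value table of the series, a ratio, was not used here because its rows could not be matched to spots. Mean signals were corrected by normexp (offset 50), with the channel's median background where a local background was marked as an outlier, then normalised by loess within arrays and Aquantile between them, in limma 3.58.1 (R 4.3.3, statmod 1.5.0). Marked spots were left out and spots of a probe averaged. The test took probes that stood well above background in 4 samples or more, with diet and dye as fixed terms, array as a random block (estimated correlation 0.546) and Benjamini-Hochberg adjustment over all probes (2-sided, 0.05). The fit was tested on simulated data. Per the labels and the series' design, the mice are biological replicates. The number of arrays limits the precision.

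The labels give mice of both diets the numbers 1 to 4. The correlation of the deviations of same-numbered mice from their group means was 0.31, 0.14, 0.17 and 0.20. Same-numbered mice share a dye, and with dye means removed too it was 0.21 for numbers 1 and 3 and 0.11 for 2 and 4. Each diet and dye held 2 mice, so the values of 1 and 3, and of 2 and 4, are equal by design. They do not show that a number pairs mice across the diets, but the number was also tried as a block. Named genes were all probes of the 9 members, the 2 probes of smallest p in each pathway list where none passed, and the 3 probes closest in pattern to each member. The result of 1 gene that this rule names is not reported here. The members and lists were chosen with earlier results of these data known. Alternatives were the background correction, the normalisations, the local trend, the blocks, each dye, each array and each mouse left out.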

Additional observations from a re-analysis of the deposited data

How the results depend on the processing

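The probes were refitted under 27 alternatives (fewer of them where only probes bright in all samples or the brightest of a gene were kept), and 0 to 2 passed the adjusted test in each. The 2 Adcy5 probes passed with no array block (2 calls, adjusted p 0.0266 for A_55_P2047305 and 0.0248 for A_66_P120414) and with the mouse number as a replicate block (2 calls). Neither passed with each array averaged to 1 value (0 calls) or without normalisation between arrays (0 calls). A_55_P2047305 passed once normal salt mice 1 and 2 were left out (1.17 with adjusted p 0.0226, 1 call) and A_66_P120414 once normal salt mice 3 and 4 were left out (0.99 with adjusted p 0.0319, 1 call). Adcy9 passed once low salt mice 3 and 4 were left out (1 call). The block changed no other member's call. The calls over all probes changed too in these settings and are given below. The cause of these shifts was not tested.

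Signs turned in 5 probes, whose differences lay between -0.13 and 0.08. Adrb1 A_51_P203827 was -0.0221 with the local trend subtracted, with and without the replicate block, -0.0467 without normal salt mice 3 and 4, -0.0184 without low salt mice 3 and 4 and -0.0274 in Cy3. Adrb1 A_52_P322181 was -0.0238 with the trend subtracted, with and without the block, and -0.0564 without normal salt mice 1 and 2. Adra1a was 0.0224 without normal salt mice 3 and 4, 0.0328 without low salt mice 1 and 2 and 0.129 in Cy3. Adra1b A_55_P2177721 was 0.0178 with the scanner's processed signal, 0.0577 without low salt mice 3 and 4 and 0.0215 in Cy5. Adcy6 was 0.0045 with the processed signal and 0.0818 in Cy5. With each mouse left out in turn they ran from -0.0102 to 0.0406 (Adrb1 A_51_P203827), -0.13 to 0.0434 (Adra1a), -0.0808 to 0.0559 (Adra1b A_55_P2177721) and -0.27 to 0.018 (Adcy6).

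Over all probes the 200 calls became 48 with the processed signal, 0 without normalisation between arrays (977 at an unadjusted p under 0.05), 66 with the trend subtracted, 817 with no array block, 0 with arrays averaged (2007 unadjusted), 310 with the replicate block and 106 with block and subtraction, which was added after seeing the data. They were 350 and 335 without the normal salt arrays of mice 1 and 2 and of mice 3 and 4, 105 and 1406 without the same low salt arrays, 0 in Cy3 (2342 unadjusted), 0 in Cy5 (1605 unadjusted), and 77 to 157 with each mouse left out. The 0 calls among pathway lists became 5 with no array block and 8 without low salt mice 3 and 4. They became 1 with block and subtraction (a further Akap7 probe, -0.74). Without low salt mice 1 and 2, Adra2b differed by 3.35, which rests on low salt mouse 3 alone, since mouse 4 had no value. Low salt mouse 3 read 11.78 where the other mice read 8.14 to 8.72. The 2 probes at 1.5-fold in both dyes became 0 with every local background as given, 1 with the processed signal and 0 with the trend subtracted. Dim probes (Adrb1 A_51_P203827, Adrb3) are limited by signal over background.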
